A study of Mus musculus with 4 samples.

Results

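Runx2 peaks were described around the 9 genes that encode the Fos and Jun proteins of AP-1 and the related factors Atf3 and Batf3. The members were all 9 genes, Fos, Fosb, Fosl1, Fosl2, Jun, Junb, Jund, Atf3 and Batf3, of 22359 protein-coding genes of the annotation. A peak belonged to a gene when it overlapped the gene body, widened by 50 kb on each side, by at least 1 bp. These windows held 70 of the 25457 day 0 peaks, 126 of the 60596 day 9 peaks and 94 of the 40330 day 28 peaks. Peaks of the 3 lists that shared a base were merged, and 130 of 67703 merged regions lay in the windows.

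The cells were MC3T3-E1 Subclone 4, a preosteoblast line from the calvaria of C57BL/6 mice. They were profiled with 1 Runx2 antibody (M70) while proliferating (day 0), depositing matrix (day 9) and mineralizing (day 28), with ascorbic acid and beta-glycerophosphate given to induce differentiation. Each time point was sequenced as 2 biological replicate libraries, which were pooled before peaks were called against input DNA of day 9 cells, so each time point has 1 list and no replicate error, and no test between time points was possible. The study used 1 cell line, the day 9 input served all 3 time points, and the lists hold no expression, so the cell type was looked at only through peaks at osteoblast genes. Among 5 such genes, Col1a1, the main collagen chain of bone, had a peak over a start site at all 3 time points, while Sp7, Bglap2 and Ibsp had one at day 9 and day 28 and Alpl at none.

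AP-1 is a dimer of proteins with a basic leucine zipper, in which a Jun protein pairs with another Jun, a Fos or an Atf protein and binds the AP-1 site in DNA. Several of its genes are immediate early genes, which are transcribed within minutes of a growth factor or stress signal, and a MAP kinase cascade acts both on their promoters and on the proteins. In bone, Fos is needed for osteoclasts, an excess of Fosl1 or of a short Fosb protein increases bone mass in mice, and Runx2 and AP-1 act together on the promoter of the collagenase gene Mmp13.

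Stretches of 201 bases at the centres of 9 merged regions are shown first, because these regions are the most highly ranked or the motif-bearing sites to which the values below refer. They were read from mm9 (NCBIM37) on the plus strand, overlap no annotated exon, and start 100 bases to the left of the region centre. Capitals mark the Runx core TGTGGT or the AP-1 site TGANTCA on either strand, so that ACCACA is the core on the minus strand.
Fos, 1528 bp upstream (chr12:86813212-86813412): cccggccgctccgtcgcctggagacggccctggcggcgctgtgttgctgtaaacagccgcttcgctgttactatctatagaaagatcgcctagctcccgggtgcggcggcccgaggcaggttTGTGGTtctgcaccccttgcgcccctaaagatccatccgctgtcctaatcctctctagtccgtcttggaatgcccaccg
Fosb, 6791 bp upstream (chr7:19902085-19902285): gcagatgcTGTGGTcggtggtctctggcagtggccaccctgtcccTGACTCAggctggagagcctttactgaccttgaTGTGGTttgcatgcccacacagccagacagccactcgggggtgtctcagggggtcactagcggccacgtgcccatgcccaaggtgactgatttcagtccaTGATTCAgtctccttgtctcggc
Fosl1, 2365 bp upstream (chr19:5445238-5445438): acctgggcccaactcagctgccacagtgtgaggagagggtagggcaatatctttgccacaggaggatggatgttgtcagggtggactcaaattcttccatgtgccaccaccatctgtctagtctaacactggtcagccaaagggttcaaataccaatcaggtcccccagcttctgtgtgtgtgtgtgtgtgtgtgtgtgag
Fosl2, 578 bp upstream (chr5:32438167-32438367): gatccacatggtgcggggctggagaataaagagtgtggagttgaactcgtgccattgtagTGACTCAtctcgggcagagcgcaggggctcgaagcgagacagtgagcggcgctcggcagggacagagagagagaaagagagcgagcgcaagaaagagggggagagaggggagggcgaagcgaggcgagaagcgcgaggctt
Jun, 46207 bp upstream (chr4:94765020-94765220): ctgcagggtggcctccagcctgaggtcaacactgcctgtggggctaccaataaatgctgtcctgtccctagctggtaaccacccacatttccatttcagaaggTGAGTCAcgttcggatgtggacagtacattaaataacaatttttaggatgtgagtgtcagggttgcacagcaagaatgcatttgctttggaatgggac
Jund, 12108 bp downstream of a start site (chr8:73234865-73235065): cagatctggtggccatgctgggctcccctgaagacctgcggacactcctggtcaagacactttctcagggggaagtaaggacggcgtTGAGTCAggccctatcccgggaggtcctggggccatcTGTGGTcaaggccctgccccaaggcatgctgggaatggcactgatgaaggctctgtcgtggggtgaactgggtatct
Atf3, 47343 bp upstream (chr1:193054462-193054662): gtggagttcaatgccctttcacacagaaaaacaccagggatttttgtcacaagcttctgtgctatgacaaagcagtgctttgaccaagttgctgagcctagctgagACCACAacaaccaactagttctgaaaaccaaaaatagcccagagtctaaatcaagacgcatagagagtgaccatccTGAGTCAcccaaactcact
Between Atf3 and Batf3 (chr1:192964930-192965130): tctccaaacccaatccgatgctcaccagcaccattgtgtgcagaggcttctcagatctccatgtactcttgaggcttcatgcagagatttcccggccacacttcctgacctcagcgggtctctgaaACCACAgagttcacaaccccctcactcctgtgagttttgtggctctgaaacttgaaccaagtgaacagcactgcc
Batf3, 12669 bp upstream (chr1:192909524-192909724): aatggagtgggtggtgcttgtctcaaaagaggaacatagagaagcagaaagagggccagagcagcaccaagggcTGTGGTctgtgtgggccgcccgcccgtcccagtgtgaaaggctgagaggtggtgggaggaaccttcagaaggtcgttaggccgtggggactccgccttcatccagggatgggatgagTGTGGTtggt
The stretch upstream of Fosb held 2 cores and 2 AP-1 sites, and the one upstream of Atf3 held 1 of each. The stretch downstream of Jund also held both motifs, while the stretch of Fosl1 held neither.

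The 9 genes differed widely in how many peaks surrounded them. At day 9 Jund, Junb, Fosb and Fosl1 had the most and Jun the fewest, and in the windows of 8 of 9 genes the day 9 list held more peaks than the day 0 list. Over all protein-coding genes, 71.9% had more peaks at day 9 than at day 0, and the day 9 list is the longest. Likewise 8 of 9 genes had fewer peaks at day 28 than at day 9, against 62.8% of all genes. Jun was the exception in both directions. The median gene of the 9 had 7, 14 and 8 peaks at days 0, 9 and 28, and the median protein-coding gene had 2, 5 and 3. The median number of other genes with a start site in the window was 2 both for the 9 genes and for all genes. The genes with the most day 9 peaks had more such neighbours, 9 for Fosl1, 8 for Junb, 6 for Fosb and 4 for Jund.

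**Figure D1:**
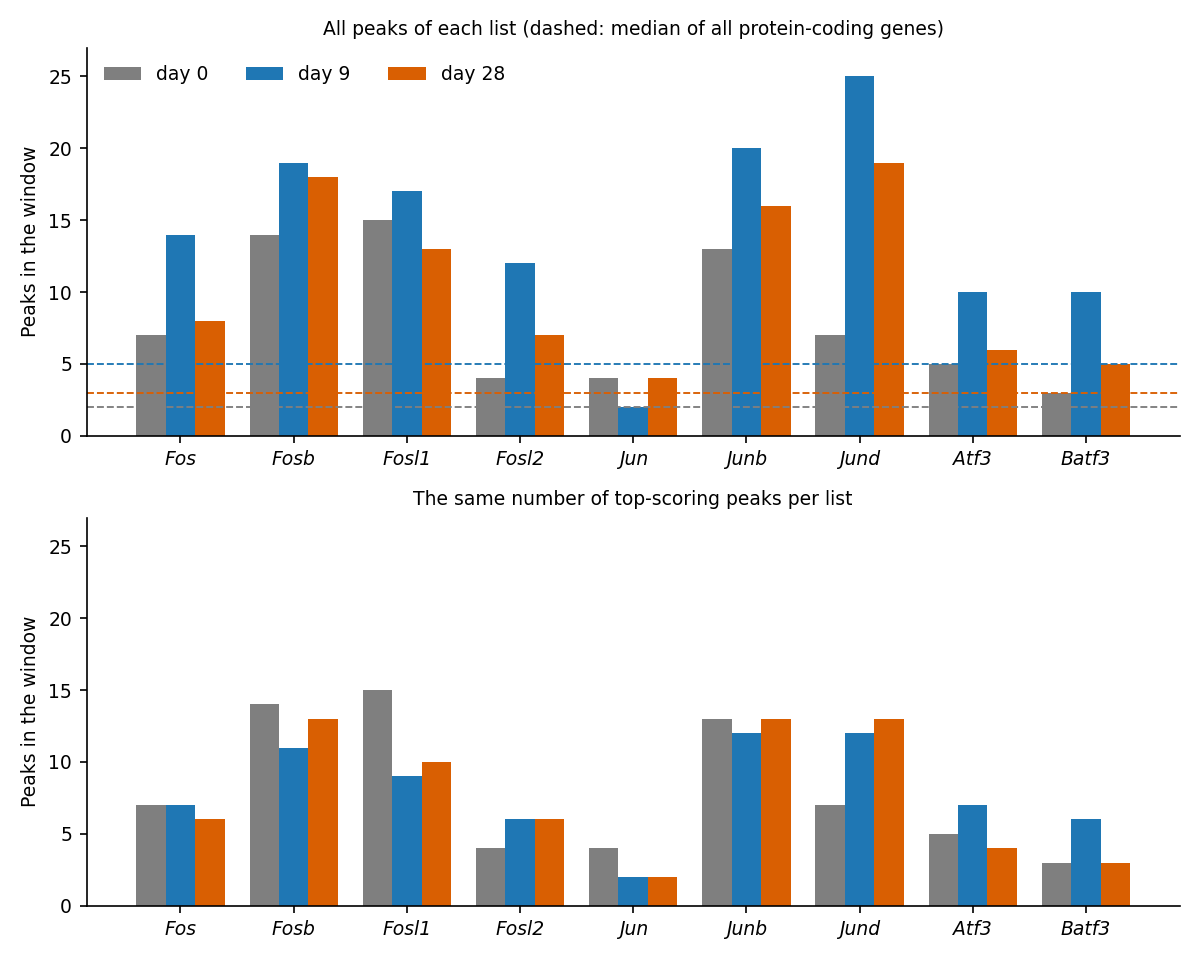
Number of peaks in the 50 kb window of each gene (y axis) at day 0, day 9 and day 28, for all peaks (top; dashed lines are the medians of all protein-coding genes) and for the 25457 top-scoring peaks of each list (bottom). In the upper panel Jund reached 25 peaks at day 9 and Jun 2; in the lower panel the 9 windows together held 70, 69 and 69 peaks.

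The difference between time points was smaller than that of the whole lists. The windows held 1.80 times as many peaks at day 9 as at day 0, while the whole lists differed by 2.38 times. At day 28 they held 0.746 times the day 9 number, against 0.666 for the whole lists. With the 25457 top-scoring peaks of each list, the windows held 70, 69 and 69 peaks at days 0, 9 and 28, and only 4 of 9 genes (Fosl2, Jund, Atf3 and Batf3) had more at day 9 than at day 0. The higher number at day 9 was thus not seen in lists of equal length. As shares of the lists, the AP-1 windows took 0.275%, 0.208% and 0.233% at days 0, 9 and 28.

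Each peak carries a score, 10 times the negative log10 of its MACS p-value. Because scores depend on read depth, which the lists do not hold, peaks are compared below by their percentile, the percent of peaks of the same list with a lower score plus 0.5 of those tied. A percentile also depends on the length of its list, since a longer list adds weak peaks below a given peak, and over all regions held at the 3 time points it was a median of 15.6 points higher at day 9 than at day 0. Percentiles in lists of equal length, the 25457 top-scoring peaks of each day, are therefore also given for several of the start-site regions and several distal regions, but not for all. In the windows the median percentile was 59.4, 62.1 and 63.1 for days 0, 9 and 28. At or above the 90th percentile lay 4 of 70 peaks at day 0 (5.71%), 17 of 126 at day 9 (13.5%) and 10 of 94 at day 28 (10.6%). Many of the highest day 9 and day 28 peaks share the tied score of 3100, which gives a percentile of 97.4 at day 9 and 97.8 at day 28.

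**Figure D2:**
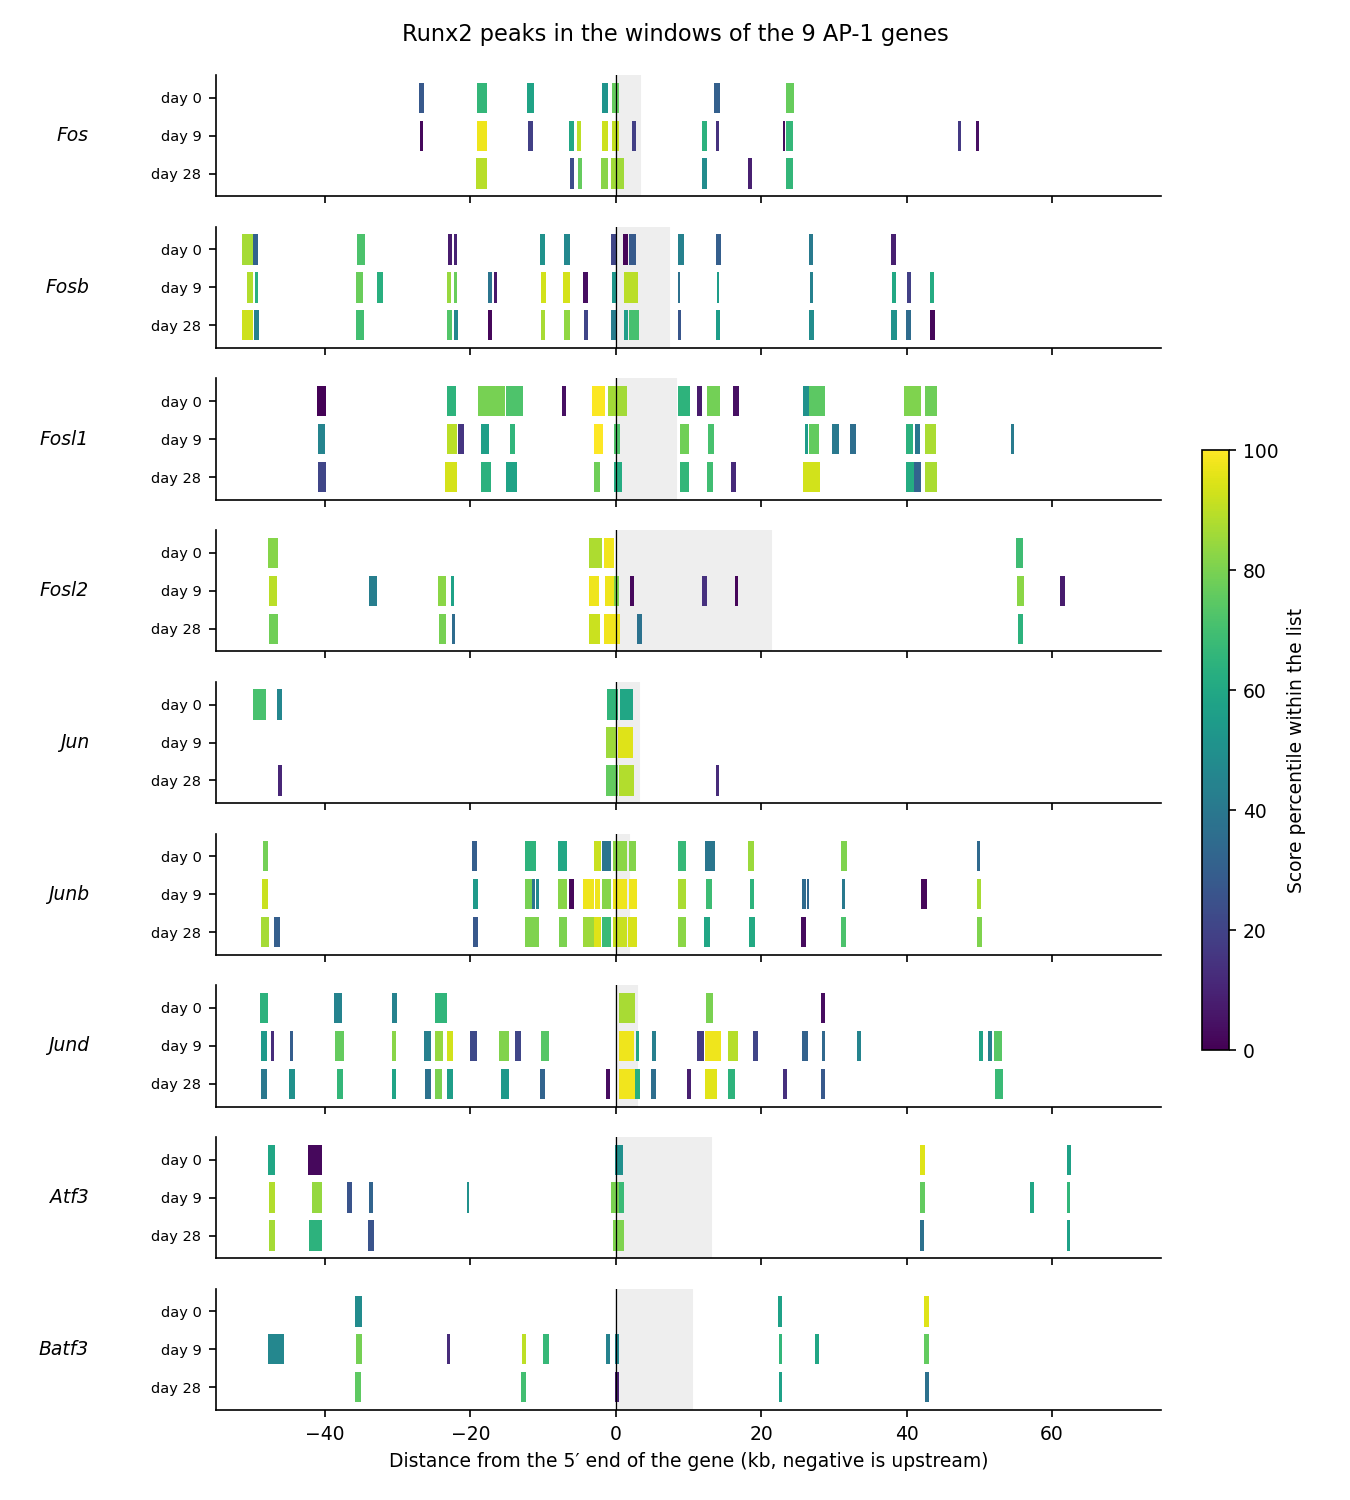
Runx2 peaks around each gene at the 3 time points, placed by distance from the 5′ end of the gene in kb (x axis, in the direction of transcription), with the gene body shaded and colour giving the score percentile within the list. Peaks lie on both sides of all 9 genes; Jun has no peak between its start-site region and the region 46207 bp upstream, and the brightest Fosl1 and Fosl2 peaks of days 0 and 9 lie just upstream of the start.

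Peaks over start sites were more frequent among the AP-1 genes than among all genes. At day 0, 6 of 9 genes had a peak over a start site, against 40.7% of protein-coding genes. At day 9, 8 of 9 had one, against 48.4%, and at day 28 all 9 had one, against 48.3%. Fos, Fosl1, Jun, Junb, Jund and Atf3 had one at all 3 time points, 6 of 9 genes against 39.3%. The genes were chosen as a family and are few, and no test against other genes was made. The median percentile of the peaks over their start sites was 79.5, 82.9 and 80.5 for days 0, 9 and 28, against 60.4, 81.3 and 77.9 for all peaks over start sites.

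Fos encodes the founding member of the Fos family and lies at chr12:86814840-86818223 on the plus strand, with no other protein-coding start site in its window. Its window held 7 peaks for day 0, 14 for day 9 and 8 for day 28, and all 15 of its regions had Fos as the nearest gene. The peak over the Fos start site was at percentile 76.4, 90.7 and 85.6 for days 0, 9 and 28. It was centred 24 bp upstream of the start at day 0 and 40 bp upstream at day 9, and the day 28 peak, centred 249 bp downstream, reached into the gene.

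The highest Fos peak at day 9 and at day 28 was distal. A region 18434 bp upstream of Fos (chr12:86795635-86797178) stood at percentile 66.1 at day 0, 97.4 at day 9 and 89.1 at day 28. The region 1528 bp upstream, whose sequence with 1 core is printed above, stood at 51.6, 92.5 and 82.4. Both regions were also highest at day 9 in lists of equal length, with 66.1, 93.9 and 82.7 for the first and 51.6, 82.1 and 72.1 for the second. Over the start site the values in such lists were close together, at 76.4, 77.9 and 77.2. A region 23951 bp downstream of the start stood highest at day 0, with 76.9 at day 0, 66.5 at day 9 and 66.1 at day 28, and gave the highest Fos peak of day 0. A further region 4956 bp upstream was present only at day 9 (89.9) and day 28 (76.3). The family's 3 regions with a peak at day 0 and day 9 but not at day 28 were all in the Fos window. Of its regions with a core at the centre, that 26692 bp upstream was weak (27.4 at day 0 and 2.0 at day 9) and that 47318 bp downstream was present at day 9 alone (16.4). The only Fos region held at day 28 alone, 18456 bp downstream, was at percentile 8.9.

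Fosb encodes a Fos protein that is also made in a short form without the transactivation domain. It lies at chr7:19888070-19895394 on the minus strand, among 6 other genes with a start site in its window. Its window held 14, 19 and 18 peaks at days 0, 9 and 28, 51 in all and as many as Jund, and 13 of its 19 regions had a peak at all 3 time points. Only 8 of the 19 regions had Fosb as the nearest gene. A weak region lay at the Fosb start, at percentile 21.1, 53.0 and 41.9 for days 0, 9 and 28. With lists of equal length its values were 21.1, 0.0 and 8.0, so that day 0 was highest. Its day 9 peak fell below the shortened list and was counted as 0. Only the day 28 peak of this region covered the start site at 19895394, since the day 9 peak began at 19895399 and the day 0 peak at 19895418.

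Stronger Fosb peaks lay upstream and in the gene. The region 6791 bp upstream, printed above with 2 cores and 2 AP-1 sites, stood at percentile 46.8 at day 0, 93.6 at day 9 and 83.4 at day 28. A second region 9998 bp upstream stood at 51.1, 93.0 and 86.9. The region in intron 1 stood at 27.8, 89.8 and 70.6. This order, with day 9 highest and day 0 lowest, is also that of the list lengths. In lists of equal length the 3 regions kept it, at 46.8, 84.8 and 73.6, at 51.1, 83.4 and 79.2, and at 27.8, 75.7 and 53.4. An AP-1 site lay within 50 bp of the centre of a weaker region 17286 bp upstream, with 38.4 at day 9 and 1.7 at day 28. The highest peak of the window at day 0 (86.6) and day 28 (92.3) covered the start of the neighbouring gene Ppp1r13l, 50674 bp from the Fosb start.

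Fosl1 encodes Fra1, whose overexpression thickens the skeleton of mice, and lies at chr19:5447703-5455945 on the plus strand among 9 other genes. Its window held 15, 17 and 13 peaks at days 0, 9 and 28, and at day 0 it ranked at the 99.5th percentile of all genes by number of peaks. Fosl1 was the nearest gene of 3 of its 18 regions. The region 2365 bp upstream (chr19:5444394-5446282) held the highest-scoring peak of the family at day 0 and day 9, at percentile 99.5 at day 0 and 99.9 at day 9. The day 9 rank rests on a score of 3177.67, above the tied score of 3100 of 9 other peaks of the family. Ranking the score of 3100 above all others would place those peaks higher at day 9. At day 28 the same region stood at 78.0. The letters of neither motif lay in the 201 bases at its centre, and the whole region held 1 core and 1 AP-1 site.

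Over the Fosl1 start site the percentile was 86.1, 72.6 and 61.4 for days 0, 9 and 28. In lists of equal length it was 86.1, 34.8 and 38.8. The day 0 peak over the Fosl1 start was 2503 bp wide, against 835 bp at day 9 and 1084 bp at day 28. A region 7134 bp upstream of Fosl1 and another near Fibp, which holds an AP-1 site at its centre, were present at day 0 alone, at percentiles 4.1 and 7.2. At day 28 the highest peak of the window (93.4) covered the starts of Drap1 and AI837181, 22657 bp from the Fosl1 start.

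Fosl2 encodes Fra2, a Fos protein of osteoblasts and chondrocytes, and lies at chr5:32438845-32460204 on the plus strand. Its window held 4 day 0 peaks, 12 day 9 peaks and 7 day 28 peaks. The region at the Fosl2 promoter (chr5:32437157-32439377) was high in all 3 lists, at percentile 97.7 at day 0, 97.4 at day 9 and 97.8 at day 28. The day 9 and day 28 values are those of the tied score, so no order can be read from them. The day 0 peak ended at 32438558, upstream of the start site at 32438845, and so did the highest day 9 peak (32438556). A second day 9 peak, at percentile 80.5, and the single wide day 28 peak covered the start site. The centre of this region, 578 bp upstream, holds the AP-1 site TGACTCA printed above and no core.

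A neighbouring region 2821 bp upstream of Fosl2, which covers the start of Gm10463, stood at 87.7, 97.4 and 92.2 at days 0, 9 and 28. Within the gene the peaks were weak. At day 9 alone, 3 peaks lay in introns 1 and 2 and exon 4, at percentiles 2.3, 13.9 and 1.6. At day 28 alone a peak lay in intron 1 at percentile 37.6.

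Jun encodes the principal Jun protein in a gene without introns at chr4:94715725-94718913 on the minus strand, with no other protein-coding start site in its window. It had 4, 2 and 4 peaks at days 0, 9 and 28, in 4 merged regions. At day 9 the number of peaks ranked at the 29.5th percentile of all genes, the lowest of the 9, while all other AP-1 genes ranked at 76.6 or higher. Both day 9 peaks belonged to 1 region over the gene (chr4:94716451-94720282). Over the Jun start site the percentile was 65.4, 85.3 and 76.1 for days 0, 9 and 28. The adjoining peak over the gene body stood at 59.3, 95.2 and 88.3. In lists of equal length the highest peak of this region stood at 65.4, 88.6 and 81.5. That was the start-site peak at day 0 and the gene-body peak at days 9 and 28, so these values do not follow 1 peak. Jun thus had few peaks, of which those at day 9 were high in the list.

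The distal regions of Jun lacked a day 9 peak. A region 49065 bp upstream was present at day 0 alone at percentile 71.0, the highest Jun peak of that day and the highest of the 3 regions of the family held at day 0 alone. The region 46207 bp upstream, printed above with its AP-1 site, was present at day 0 (46.5) and day 28 (10.6). A region 13951 bp downstream of the start was present at day 28 alone (12.1).

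Junb encodes a Jun protein known to support osteoblast proliferation and lies at chr8:87500811-87502617 on the minus strand among 8 other genes. The numbers of peaks in its window were 13, 20 and 16 for days 0, 9 and 28, and 13 of its 18 regions had a peak at all 3 time points. Only 4 of the 18 regions had Junb as the nearest gene. High peaks lay over the gene and beside both of its ends. The peak over the Junb start site stood at percentile 82.6 at day 0, 97.4 at day 9 and 91.6 at day 28. The region at the end of the gene stood at 81.3, 97.4 and 93.9. A region 3303 bp upstream stood at 91.7, 97.4 and 95.1 and held the highest Junb peak of days 0 and 28. In lists of equal length these regions kept the order, at 82.6, 93.9 and 86.7, at 81.3, 93.9 and 90.3, and at 91.7, 93.9 and 92.2. None of the regions nearest to Junb had a core or an AP-1 site at the centre, although the region 3303 bp upstream held 4 cores and 2 AP-1 sites over its whole width.

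Other regions of the Junb window stood lower at day 9 than at day 0. A region over the start of Rtbdn stood at percentile 80.6 at day 0, 40.5 at day 9 and 71.9 at day 28, the largest drop from day 0 to day 9 among the family's regions of 3 time points. A peak over the start of Asna1, 46592 bp from the Junb start, was present at day 28 alone (29.7).

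Jund encodes the Jun protein that restrains growth in several cell types, in a gene without introns at chr8:73221638-73224515 on the plus strand. Its window held 7 peaks in the day 0 list, 25 in the day 9 list and 19 in the day 28 list, the widest range of the family, and 28 merged regions. Only 3 of the 28 regions had Jund as the nearest gene, and 4 other genes had a start site in the window. In lists of equal length the numbers were 7, 12 and 13. The region over the gene stood at percentile 86.7 at day 0, 97.4 at day 9 and 97.8 at day 28. Its peaks covered 1 of 2 annotated Jund start sites, and the start of the overlapping gene Gm11175, but not the 5′ end of Jund at 73221638, which lies upstream of the peaks.

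The region 12108 bp downstream of a Jund start site (chr8:73233860-73236070) stood at percentile 79.8 at day 0, 97.4 at day 9 and 95.6 at day 28. Its centre holds an AP-1 site and a core, with 30 bases between them in the sequence above. It was the only one of the family's 3 regions with both motifs at the centre to have a peak at all 3 time points. The other two were present at day 9 alone, in an exon of Pgpep1 in the Jund window (12.7) and over a start of Efemp2 in the Fosl1 window (35.6). Jund had 3 of the family's 7 regions held at day 28 alone, at percentiles 3.3, 8.5 and 13.8, with the first 1116 bp upstream of the gene.

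Atf3 encodes a stress-induced factor that pairs with Jun proteins, and Batf3 a small factor known from dendritic cells. They lie close together on chromosome 1, Batf3 at 192922293-192932822 on the plus strand and Atf3 at 192994175-193007219 on the minus strand, and 3 regions fell in both windows. The Atf3 window held 5, 10 and 6 peaks at days 0, 9 and 28, and the Batf3 window 3, 10 and 5. The peak over the Atf3 start site stood at percentile 50.0, 79.8 and 80.5 for days 0, 9 and 28. With lists of equal length its values were 50.0, 51.8 and 69.1, so that days 0 and 9 were close together. The Batf3 start site had no peak at day 0 and weak peaks at day 9 (46.7) and day 28 (8.2), the lowest start-site percentile of the family.

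Distal regions of both genes carried cores. The region 47343 bp upstream of Atf3, printed above, stood at percentile 59.2 at day 0, 88.5 at day 9 and 86.3 at day 28, the highest Atf3 peak of days 9 and 28. In lists of equal length it stood at 59.2, 72.6 and 78.3, so that day 28 was highest. A region 41322 bp upstream stood at 2.1, 84.1 and 64.4, and at 2.1, 62.1 and 43.6 in lists of equal length. Cores also lay at the centres of 2 weaker Atf3 regions held at day 9 alone, 20367 bp (50.2) and 36677 bp (25.9) upstream. The region 12669 bp upstream of Batf3 had no day 0 peak and stood at 89.9 at day 9 and 69.6 at day 28.

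The shared region between the genes (chr1:192964629-192965431) was highest at day 0. It stood at percentile 95.2 at day 0, 75.9 at day 9 and 36.8 at day 28, and held the highest day 0 peak of both windows. It lies 42189 bp from the Atf3 start site, on the downstream side, and the nearest start site is that of Fam71a. A core lies near its centre, as printed above.

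**Figure D3:**
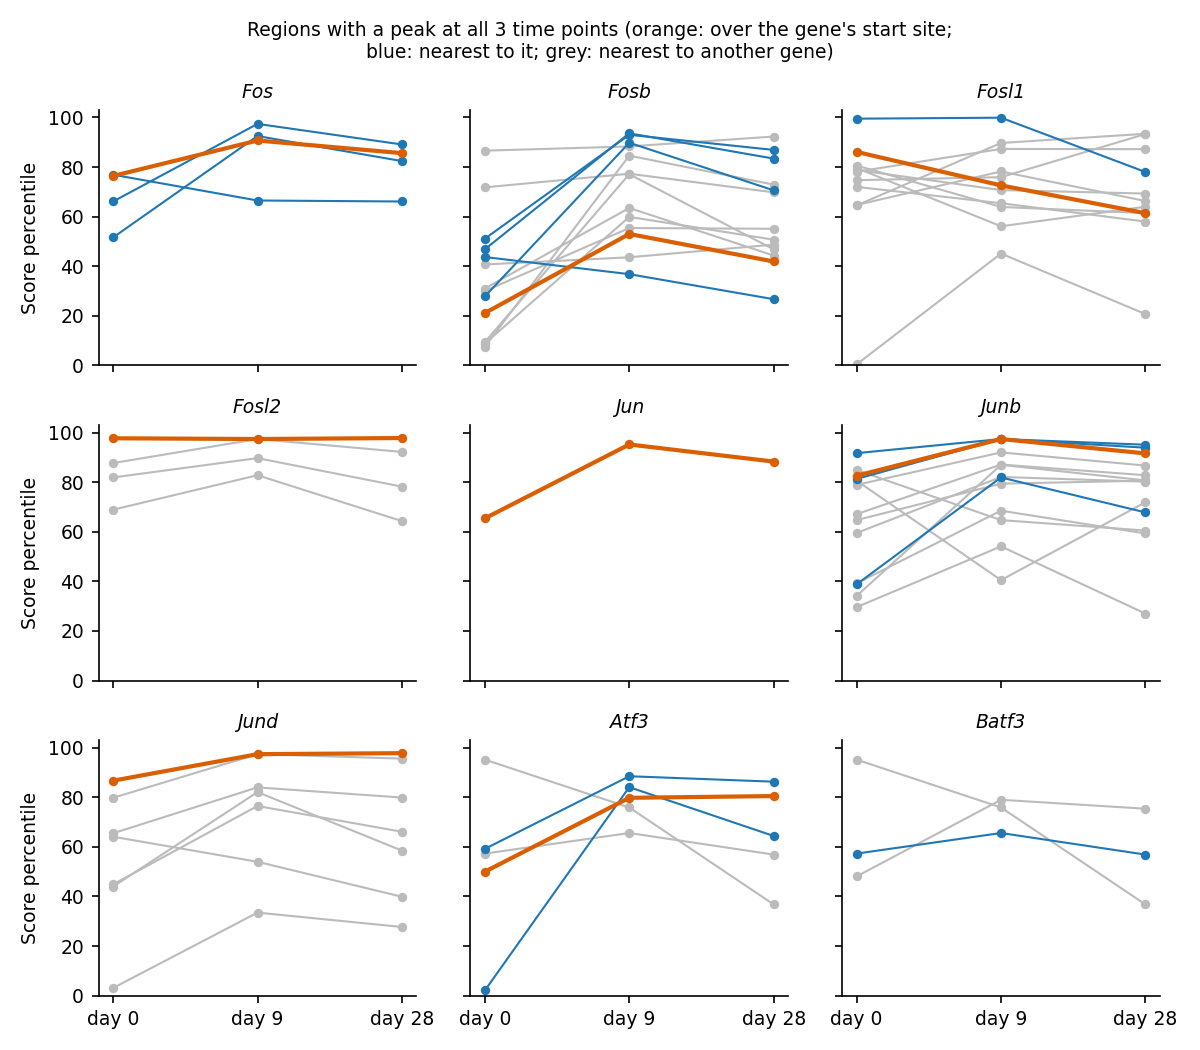
Score percentile (y axis) at each time point of the regions with a peak at all 3 time points, by gene window; orange lines are regions over the gene's own start site, blue lines regions nearest to that gene and grey lines regions nearest to another gene. In 40 of 59 regions the highest value is at day 9, the longest list, against 19 in lists of equal length; the Fosl1 start-site region and the shared region in the Atf3 and Batf3 windows are highest at day 0.

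Across the family, regions with a peak at all 3 time points made up 59 of 130 (45.4%, exact binomial 95% interval 36.6 to 54.3), against 27.4% of all merged regions. Regions at day 9 alone made up 34 of 130 (26.2%, interval 18.8 to 34.6), against 34.5%. Both day 9 and day 28 but not day 0 held 22 (16.9%), against 21.1%. Only 3 regions (2.31%) were held at day 0 alone and 7 (5.38%) at day 28 alone, against 5.60% and 7.59%. Of the 54 regions whose nearest start site was that of an AP-1 gene, 22 (40.7%) had a peak at all 3 time points. Of the 130 regions, 24 covered the start site of another gene. The 67703 merged regions are not a like background, because the 130 were taken around genes. The part of location or width in these shares was not tested. When peaks were joined only if their centres lay within 250 bp, the share at all 3 time points was 31.4%, against 19.8% of all regions. With only peaks of p 1e-50 or less it was 26.8% of 56 regions, against 23.5%.

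**Figure D4:**
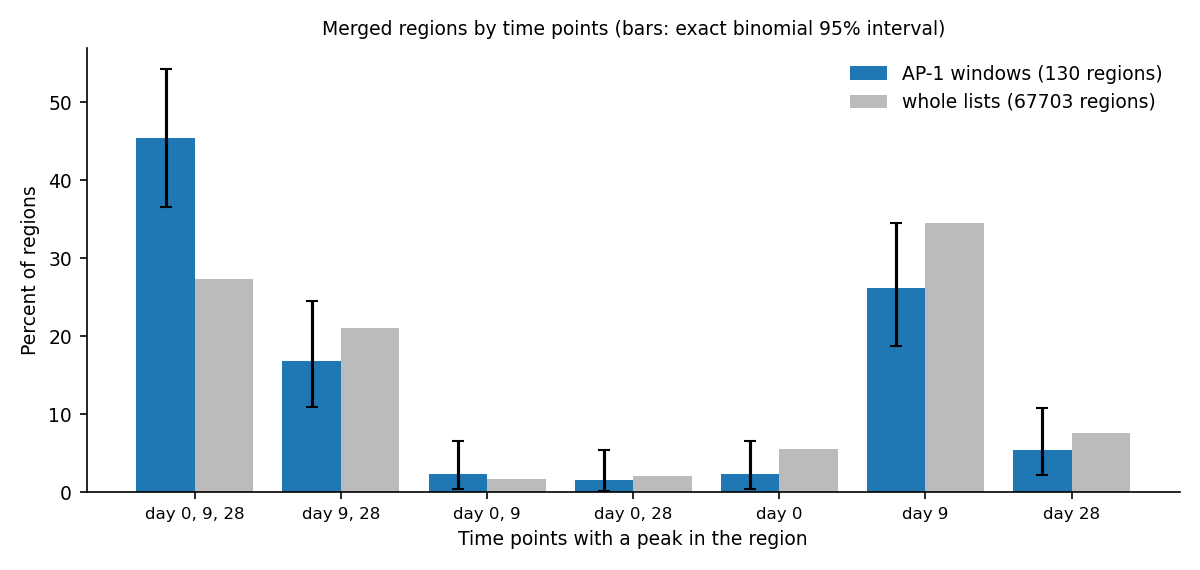
Percent of merged regions (y axis) by the time points that hold a peak, for the 130 regions of the AP-1 windows (blue, with exact binomial 95% intervals) and for all 67703 regions (grey). The AP-1 windows have 45.4% at all 3 time points against 27.4%. The 67703 regions are not a like background, since the 130 were taken around genes.

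Among the 59 regions of all 3 time points, the percentile was highest at day 9 in 40 (67.8%), against 55.1% of all such regions, at day 0 in 11 and at day 28 in 8. From day 0 to day 9 it was higher in 47 of 59, against 14040 of 18584 such regions of the whole lists. The median difference was 16.1 points, against 15.6 points over all regions. From day 9 to day 28 it was higher in 10 of 59, against 6198 of 18584, with a median difference of -6.17 points, against -3.84. The shift from day 0 to day 9 was thus close to that of the whole lists. In the full lists a smaller share of the family than of all regions was higher at day 28 than at day 9. In lists of equal length, with a peak below its list counted as 0, the percentile was highest at day 9 in 19 of the 59 regions (32.2%, against 18.6% of all such regions), at day 0 in 25 and at day 28 in 15. From day 0 to day 9 it was then higher in 26 of 59, against 7152 of 18584, with a median difference of -3.15 points, against -5.68 over all regions. From day 9 to day 28 the median difference was then 2.24 points, against 2.61 over all regions, so the fall seen in the full lists was not kept. The higher percentiles at day 9 were thus not seen in lists of equal length. The cut leaves the day 0 list whole, so only day 9 and day 28 peaks can count as 0, below any day 0 value. The day 9 peak counted as 0 in 10 of the 59 regions and in 3794 of all 18584.

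Peaks of the AP-1 windows lay upstream of genes more often, and in introns less often, than peaks of the whole lists. Placed by its centre in the first matching category of exon, intron, promoter, end of gene, upstream and intergenic, 27.8% of day 9 peaks (interval 20.2 to 36.5) were 1 kb to 20 kb upstream of a start site, against 10.3% of the list. Intronic peaks were 20.6% at day 9, against 42.9%. Exonic peaks were 23.8%, against 15.8%, and promoter peaks 9.52%, against 4.52%. Upstream peaks were 24.3% at day 0 and 29.8% at day 28, against 9.83% and 10.0%. With promoters given precedence over exons and introns, promoter peaks were 20.6% at day 9 and exonic peaks 15.1%, against 15.2% and 7.82% of the list. The peaks were chosen around 9 mostly short genes, 3 of them with a single exon, and the whole list is not a like background. The part of this choice in the shares was not tested. The upstream share at day 9 moved with the window, to 40.9% within 10 kb, 43.5% within 20 kb and 22.7% within 100 kb.

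The Runx core TGTGGT lay wholly within 50 bp of the centre in 19 of 130 regions (14.6%, interval 9.03 to 21.9), against 24.2% of all regions. In flanks 450 to 550 bp from the centre it lay in 10.0% of the AP-1 regions and 14.1% of all. The AP-1 site TGANTCA, searched on both strands like the core, lay at the centre of 12 regions (9.23%, interval 4.86 to 15.6), against 4.21%, and in the flanks of 5.38% and 5.37%. The related CRE, TGACGTCA, lay at the centre of 0 of 130 regions, with an upper interval bound of 2.80%, and of 0.222% of all regions. The 3 motifs share letters but no match to one is a match to another.

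The difference for the core depended on where it was sought. Around the centre of the day 9 peak it was 22.0%, against 25.9% of all regions with a day 9 peak, and over whole regions it was 62.3% against 64.0%. The AP-1 site was more frequent than in the whole lists under these choices, at 34.6% of whole regions against 23.9%. AP-1 regions were somewhat wider, with a median of 822 bp against 702 bp, and the part of width in these shares was not tested. Regions of all 3 time points held the core at the centre in 11.9% of the family and 13.6% of the lists, regions of day 9 and day 28 in 9.09% and 26.7%, and regions of day 9 alone in 26.5% and 32.3%. The AP-1 site lay at the centre in 3.39% and 4.34% of regions of all 3 time points, in 13.6% and 3.62% of those of day 9 and day 28, and in 14.7% and 2.50% of those of day 9 alone. It was thus more frequent than in the lists in the last 2 of these classes and not in the largest, and the family's percentages for it rest on 2, 3 and 5 regions. Among the 54 regions nearest to an AP-1 gene, 8 had the core at the centre (14.8%), against 24.2% of all regions. The AP-1 site lay at the centre of 3 of the 54 (5.56%, interval 1.16 to 15.4), near the 4.21% of all regions.

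**Figure D5:**
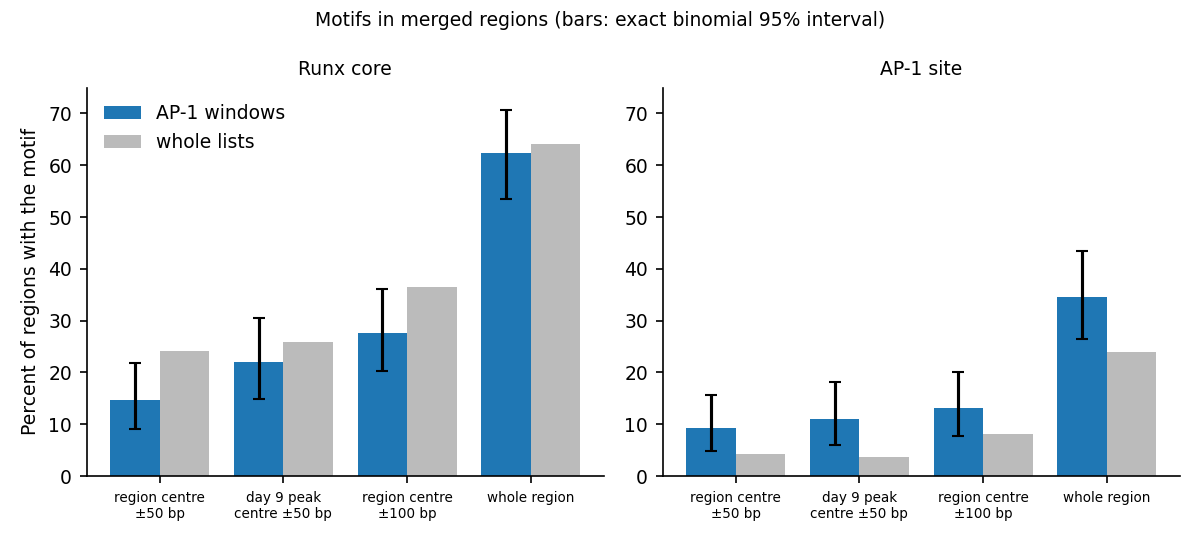
Percent of merged regions (y axis) that hold the Runx core or the AP-1 site, for 4 choices of the stretch searched, in the AP-1 windows (blue, with exact binomial 95% intervals) and in the whole lists (grey). The core is at 14.6% against 24.2% at region centres but at 62.3% against 64.0% over whole regions, and the AP-1 site is higher in the AP-1 windows in all 4 choices. Of the regions nearest to an AP-1 gene, which are not shown apart, 5.56% had the AP-1 site at the centre, against 4.21% of all regions.

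Genes that act with or on AP-1 were described by the same measure, a peak over a start site. Their percentiles are given only for the full lists, whose lengths differ. Of 9 related leucine zipper genes, 6 had one at each of the 3 time points, namely Jdp2, Atf2, Maf, Maff, Mafg and Mafk. Jdp2, which dimerizes with Jun proteins, stood at percentile 84.8 at day 0, 97.4 at day 9 and 97.8 at day 28. Among the 6, the lowest values were 0.9, 75.2 and 62.6 and the highest 84.8, 97.4 and 97.8. Mafg, a small Maf protein, stood at 0.9, 85.3 and 85.1. Batf, Batf2 and Atf7 had no start-site peak in any list.

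Of 11 kinase genes of the MAP kinase cascade, 8 had a start-site peak at day 0 and 10 at day 9 and day 28. Those with one in all lists were Mapk7, Mapk8, Mapk9, Mapk14, Map2k1, Map2k2, Map2k4 and Map2k7. The lowest of them in each list was Map2k1, a kinase of the middle tier of the cascade, at percentile 26.9, 83.8 and 73.3, and the highest values were 89.0, 97.4 and 100.0. Mapk14, which encodes the stress kinase p38 alpha, stood at percentile 89.0, 97.4 and 97.8 at days 0, 9 and 28. Mapk9, which encodes a Jun kinase, stood at 66.5, 90.6 and 88.1. Mapk10, the neuronal Jun kinase gene, was the only one of the 11 without a start-site peak.

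Of 7 genes for factors that bind immediate early promoters, 5 had a start-site peak at day 0 and all 7 at day 9 and day 28. Srf, Elk4, Mkl1, Mkl2 and Creb1 had one in all lists, with lowest values of 47.5, 93.0 and 84.0. Srf, the serum response factor, stood at percentile 88.3, 97.4 and 97.8 for days 0, 9 and 28. Of 12 other immediate early genes, 10 had one at day 0 and 11 at day 9 and day 28. The 10 were Egr2, Ier2, Ier3, Ier5, Dusp1, Zfp36, Myc, Klf4, Cyr61 and Ctgf, with lowest percentiles of 25.8, 50.8 and 57.4 for the 3 days. Egr2, which encodes a zinc finger factor, stood at 72.4, 50.8 and 65.5 and was the only one of the partner genes with a peak in all lists to stand lower at day 9 than at day 0. Dusp1, a phosphatase of MAP kinases, was high in all 3 lists at 96.7, 97.4 and 97.8, and Klf4 stood at 93.4, 97.4 and 97.8. Egr3 had no start-site peak. Over the 39 genes of these lists, 29 had a start-site peak at day 0, 34 at day 9 and 34 at day 28, against 40.7%, 48.4% and 48.3% of all protein-coding genes.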

How the data were processed

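Runx2 ChIP-Seq of MC3T3-E1 cells was carried out at days 0, 9 and 28, with 2 libraries per time point and input DNA of day 9 cells. Per the labels and the study's methods, the authors aligned reads to mm9 (Bowtie 0.12.8), combined both libraries of each day, ran MACS 1.4.1 and kept peaks with a p-value of 1e-10 or less. Each deposited peak has a score, computed by the authors as the negative log10 of its p-value times 10, with a lowest value of 100 in each list and a tied value of 3100 at 192, 2699 and 1468 peaks of days 0, 9 and 28. The lists hold no read counts, so depth is unknown from them. The study reported the most raw reads for day 0 and the fewest for day 28. Input DNA was not analysed here.

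All peaks fitted the chromosomes of NCBIM37, and gene positions are those of GENCODE M1, which uses the same assembly (22359 protein-coding genes with 51710 protein-coding transcripts, positions counted from 1). A start site is that of any protein-coding transcript of the gene. Promoters spanned 1000 bp before to 150 bp after it, and upstream regions ended 20 kb before it. Shares carry exact binomial (Clopper-Pearson) 95% intervals, which cover counting error only and treat neighbouring regions as independent. Each time point has 1 pooled list, so no p-value was computed.

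The members and gene lists were chosen with earlier results of these data known, and 2 listed genes are not reported here. Named were all 9 genes, regions over their start sites, the highest peak of each window and list, regions nearest to a member with a Runx core or AP-1 site at the centre, regions of day 0 or day 28 alone, the neighbouring genes at those peaks, and listed partner genes with a start-site peak in all lists or none; a few further regions were named after their values were seen. Alternatives covered the p-value, lists of equal length, the window, the sharing of regions, start sites, locations and the motif stretch. Scripts used Python 3.11.15, NumPy 2.4.6, SciPy 1.17.1, pysam 0.24.0, samtools 1.23.1 and Matplotlib 3.10.9 and were tested on simulated data.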

Additional observations from a re-analysis of the deposited data

How the results depend on the processing

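No paired analysis was possible because each time point has a single list of peaks called on pooled libraries. Of 154 values under alternatives, 106 stayed within 1.5 times the reported count, or within the 95% interval of the reported share or median, and 48 did not. The cause of these differences was not tested beyond what the alternatives themselves change, namely the number of peaks or the length searched. The number of peaks at days 0, 9 and 28 was 22, 54 and 48 with p of 1e-50 or less, 29, 44 and 39 within 10 kb, 43, 69 and 55 within 20 kb, 106, 203 and 144 within 100 kb, and 30, 51 and 39 where a member had the nearest start site. In these settings day 9 kept the most peaks and day 0 the fewest. In lists of equal length it was 70, 69 and 69, with 4 genes having more at day 9 than at day 0. The number of regions was 56 at p of 1e-50 or less, 86 in lists of equal length, 46, 71 and 207 within 10, 20 and 100 kb, and 54 nearest to a member.

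The share of regions at all 3 time points was 26.8% at p of 1e-50 or less, 55.8% in lists of equal length (37.7% of all regions) and 31.4% with centres within 250 bp. It was 41.4% without Fosb and 51.0% without Jund, the genes with the most peaks. The share at day 9 alone was 10.7% at p of 1e-50 or less, 8.14% in lists of equal length and 17.4% within 10 kb. The median percentile moved at day 28 to 54.9 with p of 1e-20 or less, 48.9 with 1e-50, 53.4 in lists of equal length and 70.6 within 10 kb, at day 0 to 31.2 with 1e-50, and at day 9 to 79.0 within 10 kb. Ranking the score of 3100 above all others, an alternative chosen after seeing the data, moved no median beyond its interval. Percentiles in lists of equal length, also chosen after seeing the data, left 19 of 59 regions highest at day 9, against 40. Upstream peaks at day 9 were 40.9% within 10 kb and 43.5% within 20 kb, and with promoters taken first exonic and promoter peaks were 15.1% and 20.6%. The Runx core was at 8.70% within 10 kb, 8.45% within 20 kb, 27.7% with 100 bp on each side, 62.3% over whole regions, 26.2% as TGNGGT (36.9% of all regions) and 22.0% at the centre of the day 9 peak, and the AP-1 site at 34.6% over whole regions. Of the partner genes, 12 had a start-site peak at day 0 with p of 1e-50 or less. The number of AP-1 genes with a start-site peak stayed within 1.5 times under its 5 alternatives.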
